A study of Mus musculus with 12 samples.

Results

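The bone morphogenetic protein (BMP) pathway was followed through 9 genes in mouse pluripotent cells: the ligand gene Bmp4, the receptor gene Bmpr1a, the signal transducer genes Smad1 and Smad5, the inhibitor genes Smad6 and Bambi, and the target genes Id1, Id2 and Id3. They were chosen by gene symbol from the table that pairs transcripts with genes, and all 9 of the 57180 genes in that table were found and passed the count filter that 25446 genes passed. RNA was sequenced from an E14 mouse embryonic stem cell (ESC) line, derived from 1 chosen clone, that carries a doxycycline-inducible CRISPR interference system. Neg cells carried scramble guides and 3xKD cells carried guides against Pcx, Me1 and Me2, which encode pyruvate carboxylase and malic enzymes 1 and 2, and the study's methods give doxycycline and antibiotic selection to both. Each line was sampled in 3 replicates as ESCs, kept in N2B27 with 2i and LIF (naive pluripotency), and as epiblast-like cells (EpiLCs) on day 2 of induction with Activin A, Fgf2 and the tankyrase inhibitor XAV939 (formative pluripotency), under low oxygen, giving 12 libraries in 4 groups. Neg and 3xKD are separately transfected and selected lines, and the labels name no uninduced libraries. A difference between the lines and the knockdown itself therefore cannot be told apart here. Neither medium is described as holding added BMP or serum. The study's methods call replicates biological as a general rule, while the labels of these libraries do not say what separated them, so the p-values measure the spread between these libraries of 1 clone-derived line.

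BMP ligands bind a pair of type I and type II serine/threonine kinase receptors, and the activated type I receptor, of which BMPR1A is one, phosphorylates SMAD1 and SMAD5. These pair with SMAD4, enter the nucleus and activate target genes, among which the Id genes are the classic early responders. ID proteins lack a DNA-binding domain and hold E proteins (Tcf3, Tcf4, Tcf12) away from DNA, and Id genes are known in mouse ESCs for blocking neural entry when BMP or serum is given with LIF. SMAD6 blocks the type I receptor and SMAD1, and BAMBI is a pseudoreceptor that lacks the kinase domain. Both inhibitor genes are themselves BMP targets in many cells.

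The promoters of Id2 and Id3 are shown, since these genes moved in opposite directions in ESCs and are textbook SMAD1/5 targets. The sequences lie on GRCm39, the files' build, and each is the stretch just before the start of the Ensembl transcript that took most of the gene's reads, written 5′ to 3′ on the gene's strand. Capitals mark GTCT (on the other strand AGAC), the core of a SMAD-binding element, and the Id2 site printed last carries GGCGCC, 5 bases and GTCT, the paired form bound by SMAD1/5 and SMAD4.
Id2 promoter, chr12:25147283-25147482, minus strand: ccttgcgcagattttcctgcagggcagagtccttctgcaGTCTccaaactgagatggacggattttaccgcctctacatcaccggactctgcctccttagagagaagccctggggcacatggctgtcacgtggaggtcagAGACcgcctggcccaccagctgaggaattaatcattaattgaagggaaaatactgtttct
Id3 promoter, chr4:135870608-135870807, plus strand: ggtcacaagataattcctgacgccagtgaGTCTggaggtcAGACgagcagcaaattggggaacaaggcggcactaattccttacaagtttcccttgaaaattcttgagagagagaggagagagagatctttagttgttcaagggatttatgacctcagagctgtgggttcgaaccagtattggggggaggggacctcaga
Id2 paired site with flanks, chr12:25148848-25148872, minus strand: cgcctGGCGCCagagaGTCTgctcc
Each promoter window held 2 GTCT matches, and 74.0% of 12571 promoter windows of 200 bases held at least 1. The paired motif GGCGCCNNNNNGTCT, searched on both strands over 2000 bases before the start, was found in 24 of the 12571 windows (0.191%). Among the 7 of the 9 genes that the RefSeq promoter table lists (it has no entry for Bambi or Id1), the Id2 window held 1 match, 1571 to 1585 bases before the Ensembl start, and the other 6 held none. The RefSeq starts of Id2 and Id3 lie 1191 and 325 bases downstream of the Ensembl starts, which puts the Id2 site 2762 to 2776 bases before the RefSeq start. The RefSeq table is built on GRCm38.p6, and its starts were placed on GRCm39 by exact matches of its sequences. The Id2 window overlaps the opposite-strand lncRNA gene Gm36287, and the Id3 window lies in an exon of another, Gm57159. A match is a description of letters and was not tied to binding.

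The groups follow the sample titles, since another label gives ESCs to every Neg library and EpiLCs to every 3xKD library. By title, the summed level of 10 naive markers was 3926 to 5314 in CPM, counts scaled to library size, in the 6 ESC libraries and 474 to 580 CPM in the 6 EpiLC libraries, and that of 8 formative markers was 286 to 329 CPM and 1829 to 3628 CPM. The 3 targeted genes were lower in 3xKD than in Neg in both states without overlap, Pcx for example at 16.4 ± 0.335 against 36.2 ± 0.532 CPM in ESCs (SD, n = 3). Libraries held 11221023 to 19652197 estimated counts, with the shallowest and the deepest both among the Neg ESCs. Primitive endoderm, early mesoderm and fibroblast markers were low (sums of 22.4 to 33.1, 20.1 to 30.2 and 3.51 to 8.62 CPM, the fibroblast marker Postn at 0), and trophoblast markers summed to 43.3 to 59.0 CPM in ESCs and 6.18 to 16.9 CPM in EpiLCs. Neuroectoderm markers summed to 107 to 128 CPM in ESCs, 133 to 139 CPM in Neg EpiLCs and 70.3 to 72.5 CPM in 3xKD EpiLCs.

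A gene was called when edgeR's Benjamini-Hochberg adjusted p over all genes was under 0.01 and the absolute log2 fold change above 0.58. In ESCs, 4 of the 9 genes were called between 3xKD and Neg: Bmp4, Id1 and Id3 fell and Id2 rose, while the receptor, Smad1, Smad5 and Bambi were not called and Smad6 lay at the fold limit. The share called over all tested genes was 15.3% (8.5% higher, 6.76% lower). In EpiLCs 1 of the 9 was called, Smad6, which was higher, beside 13.2% of all genes, 7.88% higher and 5.35% lower. Without 3xKD ESCs 2, 2 of the 9 were called in ESCs. The groups did not overlap in CPM for 5 of the 9 genes in ESCs and 7 of 9 in EpiLCs, against 49.0% and 47.2% of all tested genes. The median log2 fold change over the 9 genes was -0.11 in ESCs and 0.24 in EpiLCs, against 0.03 in each over all genes. In these bulk libraries fewer cells of a type and less RNA per cell cannot be told apart.

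**Figure D1:**
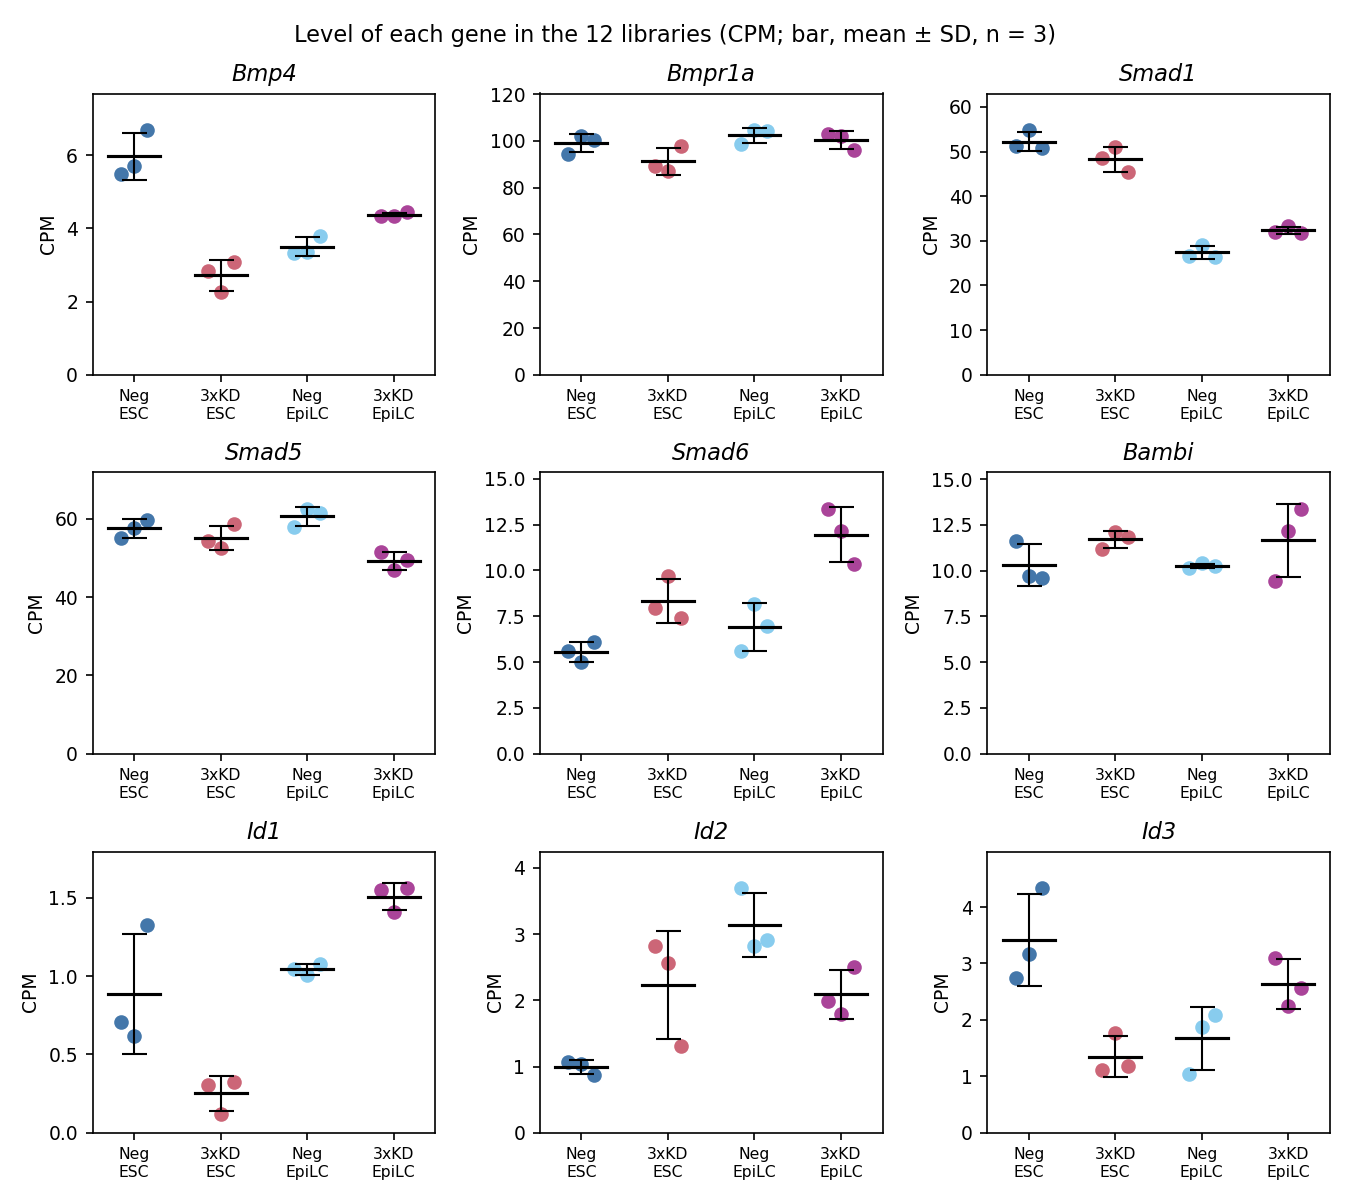
Level of each of the 9 genes in CPM (y axis, from 0) in every library of the 4 groups (x axis; points, libraries; bars, mean ± SD, n = 3). Bmp4, Id1 and Id3 were lower and Id2 higher in 3xKD than in Neg ESCs, with Id1 under 1.6 CPM in every library.

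Per length, the genes spanned a wide range. In Neg ESCs the deposited TPM (a length-scaled share of transcripts) summed per gene were 16.9 ± 4.76 for Bmpr1a, 13.3 ± 3.38 for Smad1 and 6.47 ± 1.36 for Smad5 (SD, n = 3). Smad6 and Bambi stood at 1.27 ± 0.117 and 1.33 ± 0.196 TPM, and Id3, Id1 and Id2 at 2.59 ± 1.14, 0.787 ± 0.271 and 0.536 ± 0.0536 TPM. The receptor and both transducers were thus above every inhibitor and Id gene per length, and the spreads of Smad6 and Bambi overlapped. The Id3 TPM carry uneven lengths. Neg ESCs 2 had 3.82 TPM at an average length of 623 bases, and Neg ESCs 1 and 3 had 1.57 and 2.38 TPM at 984 and 1028 bases. Id1 rested on 2 to 26 counts per library and Id2 on 12 to 60.

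Bmp4 (ENSMUSG00000021835; leading transcript chr14:46620250-46628126 on GRCm39, minus strand, 4 exons) encodes the ligand. In ESCs it stood at 5.50, 5.71 and 6.68 CPM in the Neg libraries and at 2.83, 2.26 and 3.07 CPM in the 3xKD libraries. The groups did not overlap, and the level fell 2.21-fold (log2 fold change -1.14, SE 0.15, adjusted p = 9.21e-06). Summed counts were 130 against 276, a depth-scaled ratio of 0.446 with an exact 95% interval of 0.359 to 0.551, which like the others here covers counting error only. In EpiLCs it stood at 3.33, 3.36 and 3.79 CPM in Neg and 4.34, 4.35 and 4.43 CPM in 3xKD cells, ranges that did not overlap, but the difference of 0.32 on the log2 scale was not called (SE 0.15, adjusted p = 0.102). The order of its levels was 3xKD ESCs, Neg EpiLCs, 3xKD EpiLCs and Neg ESCs.

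The Bmp4 result depended on how transcript length entered the fit. Salmon divided nearly all Bmp4 reads between transcripts of 2064 and 1633 bases, and in 3 libraries (Neg ESCs 1, 3xKD ESCs 2 and Neg EpiLCs 3) gave at most 2.98 reads to a transcript of 258 bases. Its short effective length pulled the average Bmp4 length in those libraries to 443, 256 and 356 bases, against 1463 to 1814 bases in the other 9. With offsets for this average length the ESC difference was -0.78 on the log2 scale and no longer called (adjusted p = 0.51). With offsets from transcripts of at least 300 bases only, an alternative chosen after seeing the data, it was -1.07 and called (adjusted p = 0.00095). The EpiLC difference turned to -0.71 with the offsets over all transcripts (adjusted p = 0.549). It was 0.23 with the 300-base offsets (adjusted p = 0.419), and neither was called. The Bmp4 TPM carry the same lengths, 0.973 to 5.48 in 3xKD ESCs, and were not used for comparison.

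**Figure D2:**
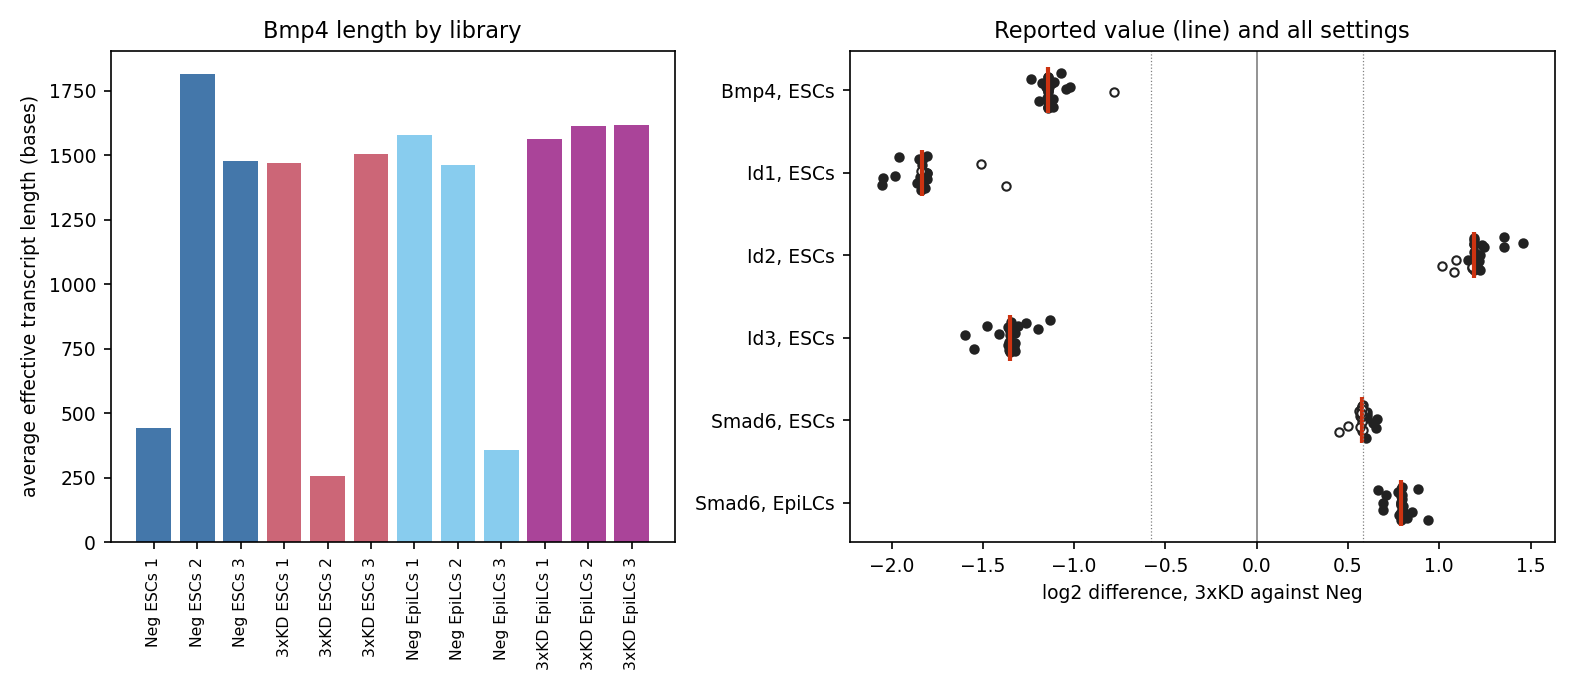
Left, average effective Bmp4 transcript length (bases, from 0) in each library, with 3 libraries at 256 to 443 bases. Right, log2 difference of 3xKD against Neg for 6 results under all settings, with Bmp4 in ESCs only. Filled points were called and open points were not. The line marks the reported value, and dotted lines the fold limits of 0.58. The direction of these 6 results was the same in every setting.

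Bmpr1a (ENSMUSG00000021796, chr14:34132687-34224757, minus strand, 13 exons), the type I receptor, was called in none of the comparisons. It ranged from 94.6 to 102 CPM in Neg ESCs, 87.0 to 97.9 in 3xKD ESCs, 98.9 to 105 in Neg EpiLCs and 96.2 to 103 in 3xKD EpiLCs. All 4 ranges overlapped with their neighbours in order. Its largest fitted difference was 0.14 on the log2 scale, between 3xKD EpiLCs and 3xKD ESCs (SE 0.05, adjusted p = 0.0293).

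Smad1 (ENSMUSG00000031681, chr8:80065023-80126168, minus strand, 7 exons) and Smad5 (ENSMUSG00000021540, chr13:56850797-56890190, plus strand, 7 exons) encode the transducers. Smad1 stood at 51.1, 54.8 and 50.8 CPM in Neg ESCs and 48.5, 50.9 and 45.4 CPM in 3xKD ESCs, ranges that overlapped (log2 fold change -0.11, SE 0.06, adjusted p = 0.122). In EpiLCs it stood at 26.6, 29.1 and 26.4 CPM in Neg and 32.0, 33.3 and 31.8 CPM in 3xKD cells. These did not overlap, and the difference of 0.24 passed the p limit but not the fold limit (SE 0.06, adjusted p = 0.00343). Smad5 stood at 57.8, 62.5 and 61.6 CPM in Neg and 51.4, 46.9 and 49.4 CPM in 3xKD EpiLCs, a difference of -0.30 that also passed the p limit alone (SE 0.05, adjusted p = 0.000229). The 2 transducers thus had opposite signs in 3xKD EpiLCs, each by less than the fold limit. With transcript-length offsets the Smad5 difference was -0.17 (adjusted p = 0.0798).

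Smad6 (ENSMUSG00000036867, chr9:63860341-63929411, minus strand, 4 exons), the inhibitory SMAD, was the only one of the 9 called between 3xKD and Neg EpiLCs. It stood at 5.61, 8.19 and 6.95 CPM in Neg and 13.3, 12.2 and 10.4 CPM in 3xKD EpiLCs without overlap and rose 1.73-fold (log2 fold change 0.79, SE 0.15, adjusted p = 0.000312). In ESCs it stood at 5.58, 5.02 and 6.12 CPM in Neg and 7.93, 9.69 and 7.38 CPM in 3xKD cells, again without overlap, a 1.49-fold difference just under the fold limit (log2 fold change 0.57, SE 0.15, adjusted p = 0.00616). That ESC difference was called when any of 6 libraries was left out: 0.66 without Neg ESCs 3, 0.64 without 3xKD ESCs 1, 0.65 without 3xKD ESCs 3, and 0.60 without Neg EpiLCs 1, Neg EpiLCs 2 or 3xKD EpiLCs 3. The 2 states did not differ in this effect beyond its error (difference 0.22, SE 0.21, adjusted p = 0.582). Bambi (ENSMUSG00000024232, chromosome 18), the pseudoreceptor, ranged from 9.43 to 13.4 CPM over all 12 libraries, its groups overlapped in every comparison, and none of its differences exceeded 0.20 on the log2 scale.

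Id1 (ENSMUSG00000042745, chr2:152578165-152579544, plus strand, 2 exons) rested on the fewest counts. It stood at 0.709, 0.619 and 1.33 CPM in Neg ESCs (8, 9 and 26 counts) and at 0.307, 0.122 and 0.327 CPM in 3xKD ESCs (5, 2 and 5 counts). The groups did not overlap, and Id1 fell 3.57-fold (log2 fold change -1.84, SE 0.42, adjusted p = 0.00186). Counting error alone gave a ratio of 0.264 with an interval of 0.127 to 0.51. The deepest library, Neg ESCs 3, was the highest, and without it the difference was -1.37 and not called (adjusted p = 0.0289). Without 3xKD ESCs 2, the lowest library, it was -1.51 (adjusted p = 0.0119), and with only the 2 ESC groups fitted it was -1.84 (adjusted p = 0.0108). In EpiLCs Id1 stood at 1.05, 1.01 and 1.07 CPM in Neg and 1.55, 1.41 and 1.56 CPM in 3xKD cells, without overlap and without a call (log2 fold change 0.53, SE 0.32, adjusted p = 0.228).

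Id3 (ENSMUSG00000007872, chr4:135870808-135872703, plus strand, 3 exons) had the sign of Id1 in both states. It stood at 2.75, 3.17 and 4.33 CPM in Neg and 1.11, 1.77 and 1.18 CPM in 3xKD ESCs. These did not overlap, and Id3 fell 2.55-fold (log2 fold change -1.35, SE 0.27, adjusted p = 0.000705). The call held in every setting tried, with values of -1.60 to -1.13 when a library was left out. In EpiLCs it stood at 1.05, 1.88 and 2.09 CPM in Neg and 3.10, 2.24 and 2.56 CPM in 3xKD cells, without overlap and without a call (log2 fold change 0.66, SE 0.27, adjusted p = 0.0702).

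Id2 (ENSMUSG00000020644, chr12:25143798-25147282, minus strand, 3 exons) went the other way. It stood at 1.06, 1.03 and 0.867 CPM in Neg and 2.83, 2.56 and 1.31 CPM in 3xKD ESCs (12 to 17 and 20 to 46 counts). The groups did not overlap, although 3xKD ESCs 3 lay close to the Neg libraries, and Id2 rose 2.28-fold (log2 fold change 1.19, SE 0.29, adjusted p = 0.00298). The call was lost without Neg ESCs 3 (1.09, adjusted p = 0.0194), 3xKD ESCs 1 (1.02, adjusted p = 0.0172) or 3xKD ESCs 2 (1.08, adjusted p = 0.0153). It was also lost with only the 2 ESC groups fitted (1.18, adjusted p = 0.0106). In EpiLCs Id2 stood at 3.70, 2.82 and 2.91 CPM in Neg and 1.99, 1.79 and 2.50 CPM in 3xKD cells, without overlap and not called (log2 fold change -0.59, SE 0.25, adjusted p = 0.0795).

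**Figure D3:**
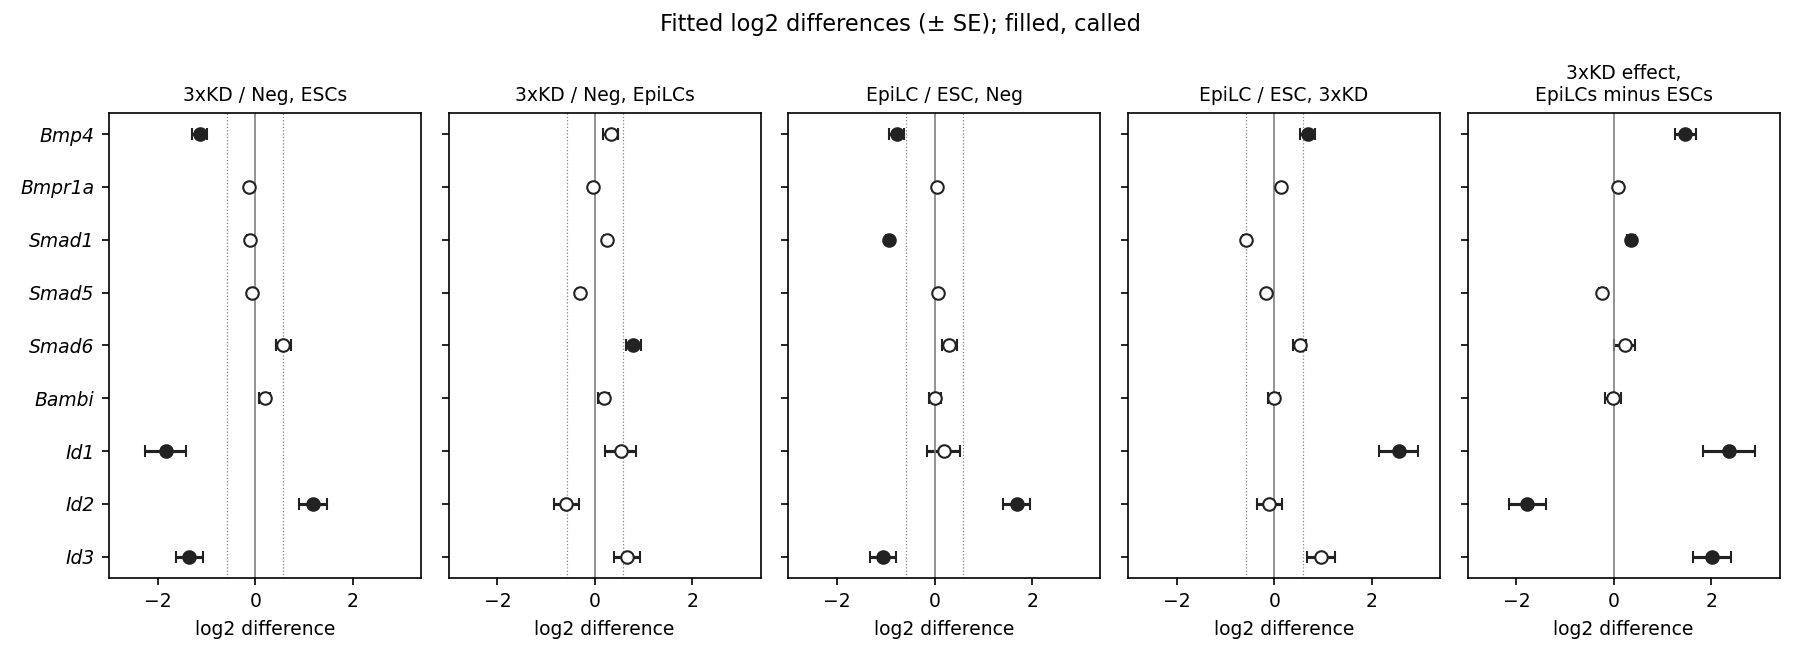
Fitted log2 differences (x axis, ± SE) of the 9 genes in the 5 comparisons (filled, called; open, not called; dotted, fold limits of 0.58). Bmp4, Id1 and Id3 lie left of 0 and Id2 right of 0 in ESCs, with all 4 on the other side in EpiLCs, where none of them was called.

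The 3xKD effect, 3xKD against Neg, differed between states for 5 of the 9 genes by the interaction term (adjusted p under 0.01, EpiLCs minus ESCs). Of these, 4 were higher and 1 lower, beside 10% of all genes, 4.76% higher and 5.27% lower. With library size alone as the scaling, 64.9% of all genes called here were higher, against 47.4% as reported. The difference was 1.47 for Bmp4 (SE 0.21, adjusted p = 0.000115), 2.01 for Id3 (SE 0.39, adjusted p = 0.00151) and 2.36 for Id1 (SE 0.53, adjusted p = 0.00486). It was 0.36 for Smad1 (SE 0.08, adjusted p = 0.00559) and -1.78 for Id2 (SE 0.38, adjusted p = 0.00364). So Bmp4, Id1, Id3 and Id2 each differed from Neg in ESCs and each effect shifted toward the opposite sign in EpiLCs. Between 2 and 5 of the 9 genes were called when a library was left out. Bmp4 and Id3 were called in all 12 of these fits (1.35 to 1.56 and 1.74 to 2.26). The Id1 call was lost without Neg ESCs 3 (1.90, adjusted p = 0.0259), without 3xKD ESCs 2 (2.04, adjusted p = 0.0162), and, with values of 2.31 to 2.38 and adjusted p of 0.0107 to 0.0114, without any 1 of the Neg EpiLCs libraries, 3xKD EpiLCs 1 or 3xKD EpiLCs 3. The Id2 call was lost without Neg ESCs 3, 3xKD ESCs 1, 3xKD ESCs 2, Neg EpiLCs 1 or 3xKD EpiLCs 2 (-1.68 to -1.60, adjusted p of 0.0106 to 0.0142). The Smad1 call was lost without Neg ESCs 2, 3xKD ESCs 1 or 3, Neg EpiLCs 1 or 3, or 3xKD EpiLCs 2 or 3 (0.31 to 0.34, adjusted p of 0.0146 to 0.0257). The fewest calls, 2, came without Neg EpiLCs 1. With transcript-length offsets 1 of the 9 genes was called, Id3 (2.53, adjusted p = 0.00999), and Bmp4 (0.07, adjusted p = 0.994), Id1 (2.39, adjusted p = 0.0207), Id2 (-1.89, adjusted p = 0.0253) and Smad1 (0.41, adjusted p = 0.121) were not. The average Id3 length was 623 bases in Neg ESCs 2 and 595 in 3xKD EpiLCs 3, against 943 to 1028 in the others. A 277-base Id3 transcript held 2 reads in all, in 2 libraries. With offsets from transcripts of at least 300 bases edgeR called 0 of the 9, with Id3 at 2.01 (adjusted p = 0.0153). There 6 had an unadjusted p under 0.05, and DESeq2 without offsets called 4.

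Between 3xKD and Neg cells the summed naive marker level moved with these results. It was 5133 to 5314 CPM in Neg and 3926 to 3987 CPM in 3xKD ESCs, with 6 of 10 markers called lower. In EpiLCs it was 474 to 493 CPM in Neg and 560 to 580 CPM in 3xKD cells, with 5 markers called higher and 1 lower, and the interaction term called 8 of the 10 higher. The naive sum was thus lower in 3xKD ESCs and higher in 3xKD EpiLCs than in Neg cells, the direction of the Bmp4, Id1 and Id3 levels. Over the transition all 10 naive markers were called lower in Neg and in 3xKD cells. Bmp4 and Id3 were also called lower in Neg cells, where Id1 was not called (0.19). In 3xKD cells Id1 (2.55) and Bmp4 (0.69) were called higher and Id3 (0.96) was not called. Formative markers summed to 3231 to 3628 CPM in Neg and 1829 to 1895 CPM in 3xKD EpiLCs, with 6 of 8 called lower. Their part in the results for the 9 genes was not tested. The deepest library, Neg ESCs 3, was the highest of its group for Bmp4, Id1, Id3 and Smad6 and the lowest for Id2.

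From ESCs to EpiLCs in Neg cells, 4 of the 9 genes were called, Id2 higher and Bmp4, Id3 and Smad1 lower, beside 20.8% of all genes (9.78% higher, 11% lower). Id2 rose 3.20-fold, from 0.988 ± 0.106 to 3.14 ± 0.483 CPM (SD, n = 3; log2 fold change 1.68, SE 0.28, adjusted p = 9.28e-05). Smad1 fell 1.91-fold, from 52.2 ± 2.21 to 27.4 ± 1.51 CPM (log2 fold change -0.93, SE 0.06, adjusted p = 6.74e-10), and this call held in every setting. Bmp4 fell 1.72-fold, from 5.96 ± 0.630 to 3.49 ± 0.261 CPM (log2 fold change -0.78, SE 0.15, adjusted p = 0.000286), a call lost with transcript-length offsets (-0.43, adjusted p = 0.721). Id3 fell 2.08-fold, from 3.42 ± 0.822 to 1.67 ± 0.550 CPM (log2 fold change -1.05, SE 0.27, adjusted p = 0.00385). That call was lost without Neg ESCs 3 (-0.83, adjusted p = 0.0342), without Neg EpiLCs 1 (-0.77, adjusted p = 0.0288) and with the offsets (-1.26, adjusted p = 0.0146). Id1 was not called (0.19, SE 0.34, adjusted p = 0.754), at 0.885 ± 0.384 and 1.04 ± 0.0341 CPM.

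In 3xKD cells 2 of the 9 genes were called over the same transition, Id1 and Bmp4, both higher, beside 18.7% of all genes (9.42% higher, 9.32% lower). Id1 rose 5.86-fold, from 0.252 ± 0.113 to 1.51 ± 0.0865 CPM (log2 fold change 2.55, SE 0.39, adjusted p = 4.69e-05), with an interval for counting error of 3.25 to 12.2 on the ratio of 6.03. Bmp4 rose 1.61-fold, from 2.72 ± 0.418 to 4.38 ± 0.0505 CPM (log2 fold change 0.69, SE 0.15, adjusted p = 0.0014). The Bmp4 rise was 0.57, under the fold limit, without 3xKD ESCs 2, and with transcript-length offsets it turned to -0.35 (adjusted p = 0.781). Id3 differed by 0.96 with an adjusted p of 0.0104 (SE 0.28), and was called without Neg ESCs 3 (adjusted p = 0.00903), 3xKD ESCs 2 (1.20, adjusted p = 0.00621) or Neg EpiLCs 1 (0.97, adjusted p = 0.00463). Other library scalings, other count filters, robust estimation or a fit of the 2 groups alone also called Id3. It stayed uncalled in 14 of 25 alternative settings. Smad1 differed by -0.58 (SE 0.06, adjusted p = 2.9e-07), just inside the fold limit, from 48.3 ± 2.76 to 32.4 ± 0.817 CPM, and was called without 3xKD ESCs 3 (-0.62) or 3xKD EpiLCs 2 (-0.60). Smad6 differed by 0.52 (SE 0.14, adjusted p = 0.00704) and was called without 3xKD ESCs 2 (0.64) or 3xKD EpiLCs 3 (0.62). Id2 stayed without a call (-0.10, SE 0.26, adjusted p = 0.81) at 2.23 ± 0.812 and 2.09 ± 0.365 CPM. The Neg and 3xKD transitions share no library, but each shares its ESC or EpiLC libraries with the comparisons above.

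A further 65 genes of the pathway in 7 lists were read beside the 9, of which 61 were tested. In ESCs 9 were higher and 3 lower in 3xKD than in Neg cells (median log2 fold change 0.03), in EpiLCs 5 and 2 (0.07), and the interaction term called 4 and 4 (0.01). From ESCs to EpiLCs 6 were higher and 14 lower in Neg cells (-0.05), and 6 and 17 in 3xKD cells (-0.21). The shares called, 19.7%, 11.5%, 13.1%, 32.8% and 37.7% in the same order, stand beside the shares of all genes given above.

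**Figure D4:**
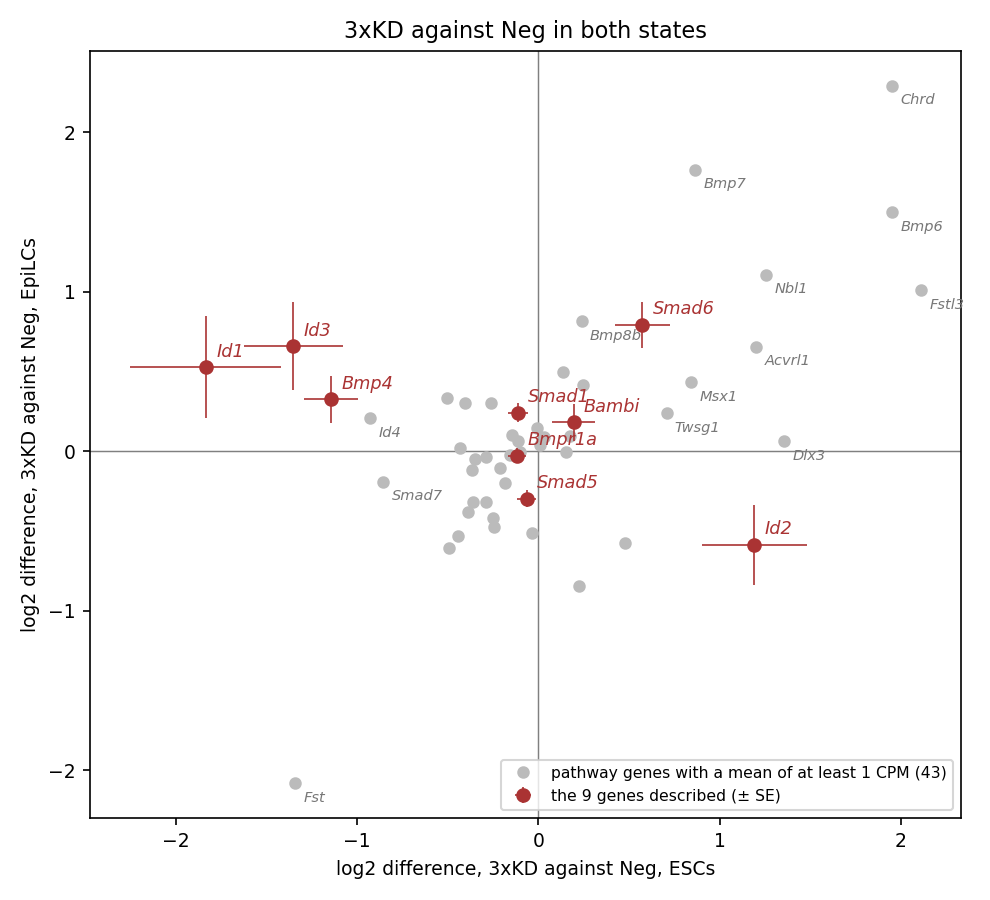
Log2 difference of 3xKD against Neg in ESCs (x axis) and EpiLCs (y axis) for the 9 genes (red, ± SE) and for the 43 pathway genes averaging 1 CPM or more (grey; names mark genes called in either state). Chrd, Bmp6, Bmp7 and Fstl3 lie at the upper right and Fst, at -1.34 and -2.08, at the lower left.

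Among 11 tested ligand genes besides Bmp4, 2 were higher in 3xKD ESCs and 3 in 3xKD EpiLCs (2 and 2 with DESeq2), and none lower. Bmp6 rose from 1.43 to 5.56 CPM in ESCs (log2 fold change 1.95, SE 0.16, adjusted p = 4.49e-08) and from 2.92 to 8.25 CPM in EpiLCs (2.82-fold, adjusted p = 2.18e-07). Bmp7 rose from 16.7 to 30.1 CPM in ESCs (0.86, SE 0.14, adjusted p = 8.8e-05) and from 1.62 to 5.45 CPM in EpiLCs (1.76, SE 0.22, adjusted p = 6.16e-06). These 2 ligands were therefore higher in 3xKD cells in both states, whereas Bmp4 was lower in ESCs. Bmp8b rose in EpiLCs (0.81, SE 0.22, adjusted p = 0.00776). Over the transition in Neg cells Bmp7 fell 10.3-fold and Bmp6 rose 2.03-fold, and in 3xKD cells Bmp7 fell 5.52-fold. The Bmp6 difference in 3xKD cells was 0.57, just under the fold limit (adjusted p = 0.00185).

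Of 11 receptor and co-receptor genes, 1 was called in 3xKD ESCs and none in 3xKD EpiLCs, where edgeR gave 4 an unadjusted p under 0.05, 2 of them past the adjusted limit, and DESeq2 called 0. Acvrl1, a type I receptor gene, rose from 2.68 to 6.19 CPM in ESCs (log2 fold change 1.20, SE 0.19, adjusted p = 5.61e-05). Over the transition 1 was higher and 6 were lower in Neg cells, and 3 were higher and 5 lower in 3xKD cells. Rgma, a co-receptor gene, fell 6.70-fold in Neg and 5.64-fold in 3xKD cells, and Tgfbr3 fell 3.86-fold and 2.62-fold. Acvrl1 fell 2.10-fold and 3.07-fold.

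Of 13 tested genes for secreted antagonists, 4 were higher and 1 lower in 3xKD ESCs, and 2 were higher and 1 lower in 3xKD EpiLCs (5 and 2 in all with DESeq2). Chrd, which encodes the BMP trap chordin, rose from 1.31 to 5.27 CPM in ESCs (log2 fold change 1.95, SE 0.25, adjusted p = 8.85e-06) and from 0.896 to 4.41 CPM in EpiLCs (2.29, SE 0.27, adjusted p = 3.53e-06). Fstl3 rose by 2.11 (SE 0.26, adjusted p = 4.41e-06) and 1.01 (SE 0.24, adjusted p = 0.00253) on the log2 scale. Fst, which encodes follistatin, an antagonist chiefly of activin, fell in both, by 1.34 (SE 0.16, adjusted p = 3.42e-06) and 2.08 (SE 0.18, adjusted p = 9.2e-08) on the log2 scale. Chordin and follistatin transcripts thus moved in opposite directions in each state. Over the transition 2 of the 13 were higher in Neg cells, both under 1 CPM, and 2 were lower in 3xKD cells, Fst (-1.09) and Nbl1 (-1.04). Twsg1 was the 1 antagonist called for the interaction (-0.47, SE 0.07, adjusted p = 8.37e-05).

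Of the 3 remaining SMAD genes of the branch, Smad7, an inhibitory SMAD that also answers to TGF-β and activin, fell 1.81-fold in 3xKD ESCs, from 81.9 to 45.4 CPM (log2 fold change -0.85, SE 0.04, adjusted p = 1.95e-10). It was not called in EpiLCs (-0.19) and its effect differed between the states by 0.66 (SE 0.06, adjusted p = 1.04e-06). The 2 inhibitory SMAD genes therefore had opposite signs in 3xKD ESCs, with Smad6 higher by less than the fold limit. Over the transition Smad7 rose 2.21-fold in 3xKD cells. In Neg cells its difference of 0.48 passed the p limit but not the fold limit (adjusted p = 4.48e-08). Of 9 intracellular regulators of SMAD1/5, none was called in 3xKD ESCs or EpiLCs by edgeR or DESeq2, with an unadjusted p under 0.05 for 7 and 6. Of these, 6 in ESCs and 5 in EpiLCs had an adjusted p under 0.01 and missed only the fold limit, such as Skil at 0.48 in ESCs (adjusted p = 6.26e-09) and -0.58 in EpiLCs (adjusted p = 4.7e-10). The interaction term called 1 of them higher and 3 lower. Skil, a co-repressor of SMADs, rose 5.52-fold over the transition in Neg and 2.66-fold in 3xKD cells and had an interaction of -1.06 (SE 0.05, adjusted p = 3.21e-10). Tob1 and Tob2 had interactions of -0.48 (adjusted p = 0.00183) and 0.45 (adjusted p = 0.0071). None of the 3 E protein genes was called in any of the 5 comparisons by edgeR or DESeq2, with 1 to 3 of them at an unadjusted p under 0.05 and 2 past the adjusted limit in ESCs and in EpiLCs, and their medians lay between -0.32 and -0.02 on the log2 scale.

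Of 11 other BMP-responsive genes, 2 were higher and 1 lower in 3xKD ESCs, and 1 was lower in 3xKD EpiLCs, while DESeq2 called 2 in ESCs and 0 in EpiLCs. The EpiLC call was Gata3 (-1.62, adjusted p = 0.00537), under 1 CPM in both EpiLC groups and named after its values were seen. Id4, the remaining Id gene, fell 1.90-fold in 3xKD ESCs, from 14.4 to 7.53 CPM (log2 fold change -0.93, SE 0.17, adjusted p = 0.000336), so that Id1, Id3 and Id4 fell and Id2 rose there. Dlx3 rose by 1.36 (SE 0.21, adjusted p = 4.35e-05) and Msx1 by 0.84 (SE 0.20, adjusted p = 0.00306) on the log2 scale. Over the transition 6 fell and 1 rose in Neg cells, and 7 fell and 1 rose in 3xKD cells. Tbx3 fell 19.5-fold and 10.9-fold in Neg and 3xKD cells, and Gata2 17.3-fold and 10.6-fold. Id4 fell 13.1-fold in Neg cells and was also called lower in 3xKD cells (log2 fold change -2.58, adjusted p = 6.08e-08). Msx2 fell 8.24-fold in 3xKD cells and was also called lower in Neg cells (log2 fold change -2.93, adjusted p = 1.99e-10). Tbx3 is also a naive pluripotency gene, and Gata2 also a trophoblast gene. Tbx3 and Gata2 had interactions of 0.84 (SE 0.05, adjusted p = 2.42e-08) and 0.71 (SE 0.16, adjusted p = 0.00459).

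The genes whose levels over the 12 libraries ran closest to each Id gene and to Bmp4 were taken from the 15032 whose mean reached 1 CPM, by the root mean square (RMS) difference of centred log2 CPM. For Id1 they were Gbx2 (0.201), Gm47995 (0.273) and Gm29695 (0.32), against an RMS deviation of Id1 itself of 0.852. Gbx2 stood at 22.7 and 8.95 CPM in Neg and 3xKD ESCs and 25.6 and 35.9 CPM in Neg and 3xKD EpiLCs, the same order of groups as Id1. For Id2 they were Gng3 (0.225), Plce1 (0.283) and Gm53660 (0.288), against 0.62, and for Id3 Zfp352 (0.254), Pdgfrl (0.314) and Gm9621 (0.33), against 0.583. For Bmp4 they were Spats2l (0.155), Ccser1 (0.165) and Dtx3l (0.169), against 0.423. None of these lists named another of the 9 genes, but Id1, whose mean over the 12 libraries was under 1 CPM, could not be named. The likeness describes 12 libraries in 4 groups and was not tested.

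The lncRNA gene Gm15222, which overlaps Bmp4 on the opposite strand, held 106 counts over the 12 libraries, with a fitted log2 difference of 1.40 in 3xKD ESCs and 1.63 in 3xKD EpiLCs. The annotated opposite-strand neighbours of Id2 and Id3 with a value in the files held 1 and 0 counts. The part of opposite-strand reads in the results was not tested. The chromosomes carrying the 9 genes had median log2 differences of -0.0521 to 0.0528 in both 3xKD comparisons.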

How the data were processed

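Per the submitters' processing notes and the study's methods, the authors trimmed single-end reads of directional, rRNA-depleted libraries (the labels name polyA RNA) with Trim Galore 0.6.7, aligned them with STAR 2.7.9a and quantified transcripts with Salmon 1.10.1 on GRCm39 with Ensembl annotation. The deposited files hold estimated counts, TPM and lengths per transcript in 12 libraries. Here the estimated counts of a gene's transcripts were added up and rounded, and 25446 of 57180 genes with at least 10 counts were tested with edgeR 4.0.16 (quasi-likelihood, TMM, the 4 groups in 1 fit, Benjamini-Hochberg adjustment). CPM use TMM library sizes. DESeq2 1.42.0 was an alternative. SEs are the fold change over the root of F. Positions, exons and windows come from GENCODE vM39 on GRCm39. Beyond the 9 genes, up to 3 called genes per list and comparison with the largest change and a mean of 1 CPM or more were named. The genes and lists were chosen with earlier results of these data known. Replicate libraries differed by more than counting noise (chi-square per degree of freedom of 2.99 to 18.4).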

Additional observations from a re-analysis of the deposited data

Results flagged for a closer look

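The 3xKD effect, 3xKD against Neg, differed between EpiLCs and ESCs by edgeR's interaction term (log2, EpiLCs minus ESCs) for 5 of the 9 genes: Id1 (2.36), Id3 (2.01), Bmp4 (1.47), Smad1 (0.36) and Id2 (-1.78). Of these, 1 was called with transcript-length offsets (Id3), 0 with offsets from transcripts of at least 300 bases (edgeR, 6 of the 9 genes at an unadjusted p under 0.05; DESeq2 without offsets called 4) and 2 without Neg EpiLCs 1. In each of Id1, Id3 and Bmp4 all 3 libraries of 3xKD ESCs lay below those of Neg ESCs and all 3 of 3xKD EpiLCs above those of Neg EpiLCs, and for Id2 the order was the reverse in both states. None of the EpiLC differences of Id1, Id2, Id3 and Bmp4 was called. Over all tested genes the groups did not overlap for 49.0% in ESCs and 47.2% in EpiLCs. Of all 25446 genes tested, the interaction term called 2553 as reported, 731 with transcript-length offsets and 855 with the 300-base offsets. DESeq2 called 2403 of them, and edgeR without Neg EpiLCs 1 called 2361 of 25054. Among the 61 other pathway genes tested the interaction term called 4 higher and 4 lower (13.1%). The higher ones were Tbx3 (0.84), Gata2 (0.71), Smad7 (0.66) and Tob2 (0.45). The lower ones were Skil (-1.06), Tob1 (-0.48), Twsg1 (-0.47) and Rnf111 (-0.23). Groups of 3 were not tested for outlying libraries.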

How the results depend on the processing

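Over 25 alternative settings, 995 of 1106 values for the 9 genes kept their direction and their side of the limits, and 5 of the 16 calls held in every setting. Counts of genes called moved by over 1.5 times as follows. Without a fold limit 4 were called in the 3xKD transition and 3 in EpiLCs, and with upper-quartile factors 4 in the 3xKD transition. With only the 2 ESC groups fitted 2 were called. With transcript-length offsets 1 was called in the 3xKD transition, 1 for the interaction and 2 in the Neg transition, and with offsets from transcripts of at least 300 bases 1, 0 and 2. Under those 300-base offsets the interaction missed the limit at an adjusted p of 0.01 for Bmp4 (1.31), 0.0153 for Id3, 0.0187 for Id1, 0.0222 for Id2 and 0.106 for Smad1, and edgeR gave 6 of the 9 an unadjusted p under 0.05. Leaving out a library gave 2 to 5 calls in ESCs, 1 in EpiLCs, 3 to 4 and 2 to 3 in the Neg and 3xKD transitions and 2 to 5 for the interaction. DESeq2 called 4, 1, 4, 2 and 4, with no adjusted p for Id1 in the last.

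Over all genes, 3885, 3367, 5292 and 4768 calls became 8048, 7610, 9081 and 8602 without a fold limit. The 2553 interaction calls became 4127 at an adjusted p under 0.05, 731 with transcript-length offsets and 855 with the 300-base offsets. The cause of these shifts beyond the lengths given for Bmp4 and Id3 was not tested.

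Direction turned for Bmp4 with transcript-length offsets in the 3xKD transition (-0.35) and in EpiLCs (-0.71). Of the 37 turns, 36 were of values not called as reported, all but that of Bmp4 in the 3xKD transition. With length offsets (all transcripts, then those of at least 300 bases) Smad1 in ESCs was 0.0305 and 0.0287, Smad5 in ESCs 0.0640 and 0.0626, Bmpr1a in EpiLCs 0.119 and 0.121 and Bambi in the 3xKD transition 0.0114 and 0.0123. Bmpr1a in EpiLCs was 0.0292 with library size alone and 0.0022 with no count filter. Bambi in the 3xKD transition was 0.0209 with RLE factors, 0.0645 with upper-quartile factors, 0.0264 with library size alone, 0.0046 with filterByExpr, 0.0147 with no count filter and 0.0210 with DESeq2. Its interaction was 0.0579, 0.0022 and 0.0120 with library size alone, filterByExpr and no count filter, and its Neg transition -0.0315 with library size alone. Leave-out ranges that crossed 0 were -0.11 to 0.12, -0.15 to 0.12 and -0.0485 to 0.0904 for Bambi (3xKD transition, interaction, Neg transition), -0.0521 to 0.000706 for Bmpr1a in EpiLCs, -0.0207 to 0.65 for Id1 in the Neg transition and -0.36 to 0.12 for Id2 in the 3xKD transition.

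Same-numbered libraries did not deviate together: their deviations correlated at -0.135 to 0.0999 and those of others at -0.146 to 0.181. Whether they were handled as pairs is not in the labels, and these values cannot decide it. A replicate block called 4, 1, 4, 2 and 5 of the 9 genes, the counts reported, and no call of the 9 genes changed. Depth limits Id1 and Id2 most, at 2 to 26 and 12 to 60 counts a library.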
